A study of Homo sapiens with 16 samples.

Results

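The mRNA levels of 10 Polycomb-related genes were followed through a knock-down of USP7, a deubiquitylating enzyme, in 2 human T-ALL cell lines (T-ALL is acute lymphoblastic leukemia of the T lineage). The genes were EZH2, EZH1, EED, SUZ12, KDM6B, RING1, RNF2, PCGF1, BMI1 and BCOR, chosen by symbol from a named list of Polycomb genes, out of 57820 genes in the count table. RNA-seq read counts were available for 16 libraries of Jurkat and HSB-2, established T-ALL lines with aberrant TAL1 activity. Each line gave 4 groups of 2 libraries, which were wild-type, scrambled control, USP7 shRNA-4057 and USP7 shRNA-4058. The last 2 carry, by lentivirus, short hairpin RNAs directed at different exons of USP7. The labels call the control a scrambled siRNA and the series design calls it a scrambled shRNA. Transduced cells were sorted for GFP or selected with puromycin, per the study's methods, and wild-type cells went through neither step as far as the labels say. The knock-down was partial, and each group rests on a single line. Nothing in the labels says whether the 2 libraries of a group came from separate transductions, so the p-values measure the spread between these libraries, which may be technical. The comparison asks whether the genes of a machinery that USP7 is part of changed in mRNA level when USP7 was lowered.

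Polycomb proteins keep developmental genes silent and work in 2 main complexes. PRC2 places methyl groups on lysine 27 of histone H3 through its catalytic subunit EZH2 or the alternative EZH1, with EED and SUZ12 as obligate partners, and KDM6B is a demethylase that removes the mark. PRC1 attaches ubiquitin to histone H2A through RING1 or RNF2, paired with 1 of several PCGF proteins. BMI1 is the PCGF protein of a canonical form, while PCGF1 together with BCOR defines a noncanonical form in which USP7 has been found as a component. In T-cell leukemia the PRC2 genes are known as targets of loss-of-function mutations.

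Levels are given as CPM, the count of a gene relative to the total of its library on the per-megaread scale, after setting the libraries to a common scale by TMM (trimmed mean of M-values). Total counts ranged from 76.6 to 235 M per library. All 10 members were measured with at least 906 counts in every library. USP7 itself averaged 385 CPM in scrambled, 142 in shRNA-4057 and 242 in shRNA-4058 Jurkat cells, and 223, 146 and 159 CPM in the same order in HSB-2. All 10 T-lineage marker genes listed exceeded a mean of 1 CPM in both lines, and no myeloid, erythroid or epithelial marker did. Of 5 B-lineage markers listed, CD79A (mean 35.5 CPM) and EBF1 exceeded it in Jurkat and PAX5 (2.07 CPM) in HSB-2. Bulk counts cannot tell a lower level per cell from a smaller share of cells that express a gene. In Jurkat the share of counts taken by the 10 most abundant genes was 14.9% and 17% in the scrambled libraries against 8.16% to 9.43% in the shRNA libraries, and its part in the results was not tested. When the libraries were scaled to their totals instead of by TMM, the median log2 fold change of all genes moved by 0.25 in pooled Jurkat and by -0.14 in pooled HSB-2, so every change given here is relative to the TMM scale.

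The lines themselves differed in most of these genes. Between the 4 control libraries of Jurkat and the 4 of HSB-2 (wild-type and scrambled), 9 of the 10 members were called, against 77.4% of all 23063 genes tested, with 7 higher in Jurkat (38.8%) and 2 lower (38.6%). A gene is called here when edgeR's quasi-likelihood test gave a Benjamini-Hochberg adjusted p, over all genes tested, under 0.05. The members' share is close to the background. All 9 calls held under each of the 14 other settings tried.

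EZH2, the main H3K27 methyltransferase (chr7:148504349-148581413, minus strand, GRCh37), gave 151 and 150.4 CPM in wild-type, 147 and 147 in scrambled, 151 and 159.8 in shRNA-4057, and 148 and 151 in shRNA-4058 Jurkat cells. In HSB-2 it gave 105 and 106 CPM in wild-type, 90.2 and 87.6 in scrambled, 85.0 and 84.2 in shRNA-4057, and 69.9 and 66.3 in shRNA-4058 cells. Every Jurkat library was above every HSB-2 library. The control log2 difference was 0.62 ± 0.026 (SE, n = 4 libraries in each line), higher in Jurkat (edgeR quasi-likelihood test, adjusted p = 1.6e-16). EZH1, its paralog with weaker methyltransferase activity, ran the other way and was lower in Jurkat by a log2 difference of -0.33 ± 0.031.

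BCOR, the corepressor that joins PCGF1 in the noncanonical complex, showed the widest separation of the lines' controls among the members. Its level lay between 156 and 198 CPM in the 8 Jurkat libraries and between 287 and 309.7 CPM in the 8 HSB-2 libraries, with no overlap. The control log2 difference was -0.80 ± 0.026 (edgeR's quasi-likelihood test, adjusted p = 9.0e-19), lower in Jurkat. KDM6B was higher in Jurkat by 0.65 ± 0.033, RING1 by 0.49 ± 0.031 and PCGF1 by 0.49 ± 0.047. RNF2, BMI1 and EED were higher in Jurkat by 0.29 ± 0.048, 0.28 ± 0.067 and 0.27 ± 0.052. For SUZ12, the zinc finger subunit that PRC2 needs for stability, the difference of -0.06 ± 0.037 did not pass the test (adjusted p = 0.15).

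**Figure D1:**
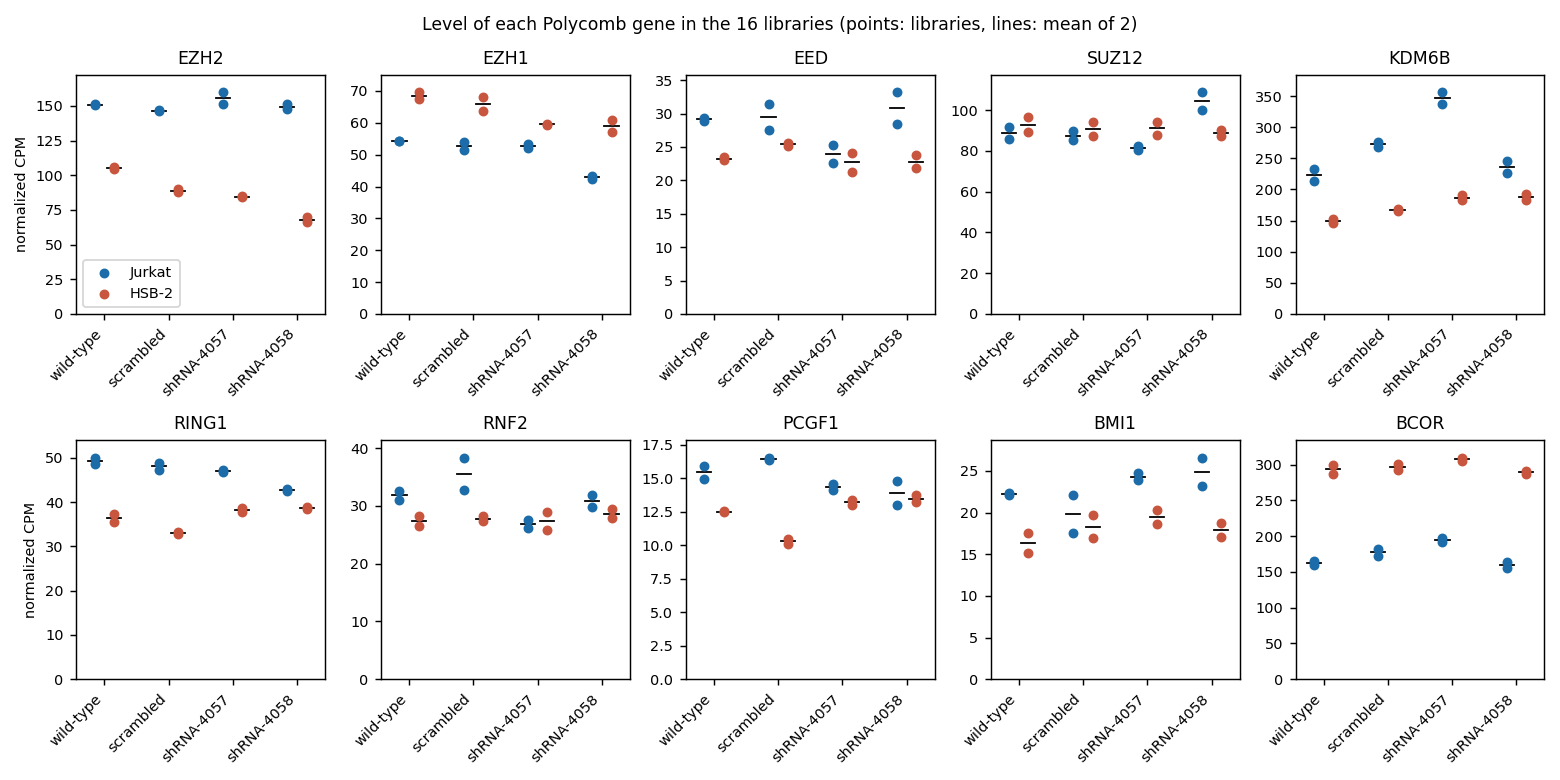
Level of each of the 10 Polycomb genes in TMM-normalized CPM (vertical axes from 0) for the 4 groups of Jurkat (blue) and HSB-2 (red), where each point is a library and each black line the mean of 2. BCOR, EZH2, EZH1, KDM6B and RING1 separate the lines in all 16 libraries, while SUZ12 lies between 80.4 and 109 CPM with the lines intermingled. How many of all genes separate the lines in this way was not counted.

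Across the 16 libraries the highest level of a member was between 1.35 times (SUZ12) and 2.45 times (KDM6B) its lowest. With the 8 groups ordered by mean, EZH2 had the fewest overlapping neighbours (1 of 7) and EED the most (6 of 7). Only neighbours were compared. In EZH2 the first group, Jurkat shRNA-4057 (151.2 to 159.8 CPM), also overlapped the third, Jurkat shRNA-4058 (147.6 to 151.2 CPM). Such overlaps were not counted over all genes. PCGF1 was the lowest in CPM, at 10.1 to 16.5 CPM. Levels of different genes were compared only per kilobase, and there the result depended on the gene model. Per kilobase of all annotated exons, KDM6B led in wild-type Jurkat at 30.1 CPM per kb and EZH2 stood at 14 CPM per kb. Per kilobase of the canonical transcript EZH2 led at 56.8 CPM per kb, because its exons add up to 10.8 kb but its canonical transcript to 2.65 kb. In wild-type HSB-2, BCOR led under both models, at 29.4 and 42.4 CPM per kb.

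In Jurkat, no member was called when both hairpins were pooled (4 shRNA against 2 scrambled libraries), while 28.0% of the 21288 genes tested were (12.4% higher and 15.7% lower). In edgeR 3 members had an unadjusted p under 0.05, and DESeq2 called 1, BMI1. The median absolute log2 fold change of the members was 0.12, beside 0.33 over all genes tested. The latter include genes with far fewer counts than any member, so the 2 medians are not matched for level. Relative to the scrambled libraries, all 4 shRNA libraries were higher in EZH2 and BMI1 (23.9% of genes) and lower in RNF2 and PCGF1 (29.9%). Relative to both controls they were higher in BMI1 (11.8%) and lower in PCGF1 (18.7%). The pooled fit counts the difference between the hairpins as error.

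Set singly against scrambled cells, in a fit of all 16 libraries whose error is the spread between replicates, shRNA-4057 gave 7 called members of 10 in Jurkat (50% of 23063 genes), 4 higher (22.7%) and 3 lower (27.3%). The same comparison for shRNA-4058 gave 8 of 10 (46.5%), 2 higher (19.7%) and 6 lower (26.7%). Among the 15776 genes with at least 10 counts in every library, which include all members, 63.5% were called under shRNA-4057 and 60.6% under shRNA-4058. Both hairpins share the scrambled libraries. RNF2 and PCGF1 were called lower and BMI1 higher under both. BCOR and KDM6B were called in opposite directions. EZH2 and EED were called under shRNA-4057, and EZH1, SUZ12 and RING1 under shRNA-4058. Scaled to library totals, with all genes moved by 0.27 and 0.28, several values crossed 0. RNF2 then stood at -0.13 and 0.08, PCGF1 at 0.08 and 0.04, and under shRNA-4058 BCOR, KDM6B and RING1 stood at 0.14, 0.08 and 0.12, while under shRNA-4057 RING1 and SUZ12 stood at 0.25 and 0.18. The calls of EED under shRNA-4057 (-0.02) and EZH1 under shRNA-4058 (-0.01) were lost on that scale (adjusted p = 0.86 for both).

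RNF2, the main H2A ubiquitin ligase of PRC1, gave 38.4 and 32.7 CPM in scrambled, 26.2 and 27.5 in shRNA-4057 and 31.9 and 29.9 in shRNA-4058 Jurkat cells. All 4 shRNA libraries were below both scrambled libraries but not below the wild-type libraries, at 32.7 and 31.1 CPM. The log2 fold change was -0.40 ± 0.068 under shRNA-4057 (adjusted p = 3.2e-05) and -0.20 ± 0.067 under shRNA-4058 (adjusted p = 0.018, edgeR's quasi-likelihood test), and pooled it was -0.27 ± 0.10 (adjusted p = 0.086). The shRNA-4058 call was lost without scrambled replicate 1 (-0.09, adjusted p = 0.39) or shRNA-4058 replicate 2 (-0.15, adjusted p = 0.14). The pooled value passed the test without shRNA-4058 replicate 1 (-0.32, adjusted p = 0.045).

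BMI1, the canonical PCGF subunit and a known regulator of stem cell self-renewal, gave 22.1 and 17.6 CPM in scrambled, 24.7 and 23.9 in shRNA-4057 and 26.6 and 23.2 in shRNA-4058 Jurkat cells, beside 22.4 and 22.1 in wild-type cells. The 4 shRNA libraries were above all 4 controls. The log2 fold changes were 0.30 ± 0.096 (adjusted p = 0.011) and 0.33 ± 0.095 (adjusted p = 0.0062), and the pooled value of 0.34 ± 0.11 just missed the threshold (adjusted p = 0.051, edgeR's quasi-likelihood test). Scrambled replicate 2 was the lowest library of the line, and without it both hairpin calls were lost (0.17, adjusted p = 0.18, and 0.22, adjusted p = 0.086). They were also lost without replicate 1 of the hairpin concerned (0.27, adjusted p = 0.067, and 0.22, adjusted p = 0.12). BMI1 shares exons with the read-through gene COMMD3-BMI1, which was listed at 0 counts in all 16 libraries. How the counting treated reads that fit both genes is not given in the sources used here. The 0 counts therefore do not show that the read-through was absent.

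PCGF1 was lower under both hairpins than in scrambled Jurkat cells. It gave 16.5 and 16.4 CPM in scrambled, 14.5 and 14.1 in shRNA-4057 and 13.0 and 14.8 in shRNA-4058 cells, beside 15.0 and 15.9 in wild-type cells. The log2 fold changes were -0.19 ± 0.067 (adjusted p = 0.019) and -0.24 ± 0.066 (adjusted p = 0.0040 in edgeR's quasi-likelihood test). Pooled, the value was -0.19 ± 0.083 and was not called (adjusted p = 0.12 in the same test). PCGF1 overlaps the antisense gene LBX2-AS1, and whether the counting used strand is not given in the sources used here. Leaving out either scrambled library (adjusted p = 0.069 and 0.12) or shRNA-4057 replicate 2 (adjusted p = 0.11) ended the shRNA-4057 call. The shRNA-4058 call was lost without scrambled replicate 2 (adjusted p = 0.062) or shRNA-4058 replicate 1 (adjusted p = 0.11).

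KDM6B, the H3K27 demethylase, gave 269 and 276 CPM in scrambled, 356 and 338 in shRNA-4057 and 227 and 245 in shRNA-4058 Jurkat cells. Its 2 hairpin groups therefore lay on opposite sides of the scrambled cells, at log2 fold changes of 0.36 ± 0.046 and -0.21 ± 0.046. Wild-type cells, at 213 and 232 CPM, overlapped the shRNA-4058 cells, and scrambled exceeded wild-type by 0.29 ± 0.046 (adjusted p = 3.2e-05, edgeR's quasi-likelihood test). BCOR also lay on either side of the scrambled cells, with 0.14 ± 0.037 under shRNA-4057, -0.15 ± 0.037 under shRNA-4058 and 0.13 ± 0.037 for scrambled over wild-type cells. KDM6B and BCOR were the 2 members called between scrambled and wild-type Jurkat cells, both higher in scrambled cells (25.9% of all genes called, 14.8% higher and 11% lower). The 3 BCOR calls did not hold without single libraries, since shRNA-4057 gave 0.10 without scrambled replicate 1 (adjusted p = 0.067) and shRNA-4058 gave -0.07 without scrambled replicate 2 (adjusted p = 0.29). Scrambled over wild-type gave 0.11 without wild-type replicate 1 (adjusted p = 0.12) and 0.08 without scrambled replicate 2 (adjusted p = 0.24).

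Among the PRC2 genes in Jurkat, EED, the subunit that reads the methyl mark, gave 31.4 and 27.5 CPM in scrambled, 22.6 and 25.2 in shRNA-4057 and 33.2 and 28.5 in shRNA-4058 cells. It fell by 0.29 on the log2 scale under shRNA-4057 (SE 0.075, adjusted p = 0.0022) and stood at 0.07 ± 0.074 under shRNA-4058. The fall was not called without scrambled replicate 1 (-0.20, adjusted p = 0.065) or shRNA-4057 replicate 1 (-0.22, adjusted p = 0.052). SUZ12 gave 89.6 and 85.1 CPM in scrambled, 80.4 and 82.6 in shRNA-4057 and 109 and 100.3 in shRNA-4058 cells. Its log2 fold change of 0.26 ± 0.053 under shRNA-4058 was called, and that of -0.09 ± 0.053 under shRNA-4057 was not.

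EZH1 fell by 0.30 under shRNA-4058 (SE 0.045, adjusted p = 7.3e-06 in edgeR's quasi-likelihood test), from 54.0 and 51.4 CPM in scrambled to 42.3 and 43.5, and was 53.5 and 52.0 CPM under shRNA-4057. RING1, the second PRC1 ligase, fell by 0.17 under shRNA-4058 (SE 0.044), from 47.3 and 48.9 to 42.9 and 42.5 CPM, a call lost without scrambled replicate 2 (-0.10, adjusted p = 0.20). EZH2 rose by 0.09 ± 0.037 under shRNA-4057 (adjusted p = 0.043), a change not called in DESeq2 (0.08, adjusted p = 0.053), without either scrambled library (adjusted p = 0.15 and 0.051) or without shRNA-4057 replicate 2 (0.05, adjusted p = 0.38). Reads from EZH2 and SUZ12 could have been divided with near-identical copies of these genes.

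The direct comparison of the hairpins called 7 of 10 members in Jurkat (33.9% of all genes), 4 higher under shRNA-4057 (17.7%) and 3 lower (16.2%). Among genes with at least 10 counts in every library the share was 47.6%. KDM6B was higher under shRNA-4057 than under shRNA-4058 by 0.56 ± 0.046, EZH1 by 0.30 ± 0.045, BCOR by 0.29 ± 0.037 and RING1 by 0.14 ± 0.044. EED, SUZ12 and RNF2 were lower, by -0.36 ± 0.074, -0.35 ± 0.053 and -0.20 ± 0.068. The RING1 call was lost without 1 of 3 libraries (shRNA-4057 replicate 1 or 2 and shRNA-4058 replicate 2, adjusted p from 0.055 to 0.073), and the RNF2 call without replicate 1 of either hairpin (adjusted p = 0.18 and 0.22). USP7 was itself lower under shRNA-4057 than under shRNA-4058 in Jurkat (-0.77 ± 0.035), and the part of that gap in the differences was not tested.

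**Figure D2:**
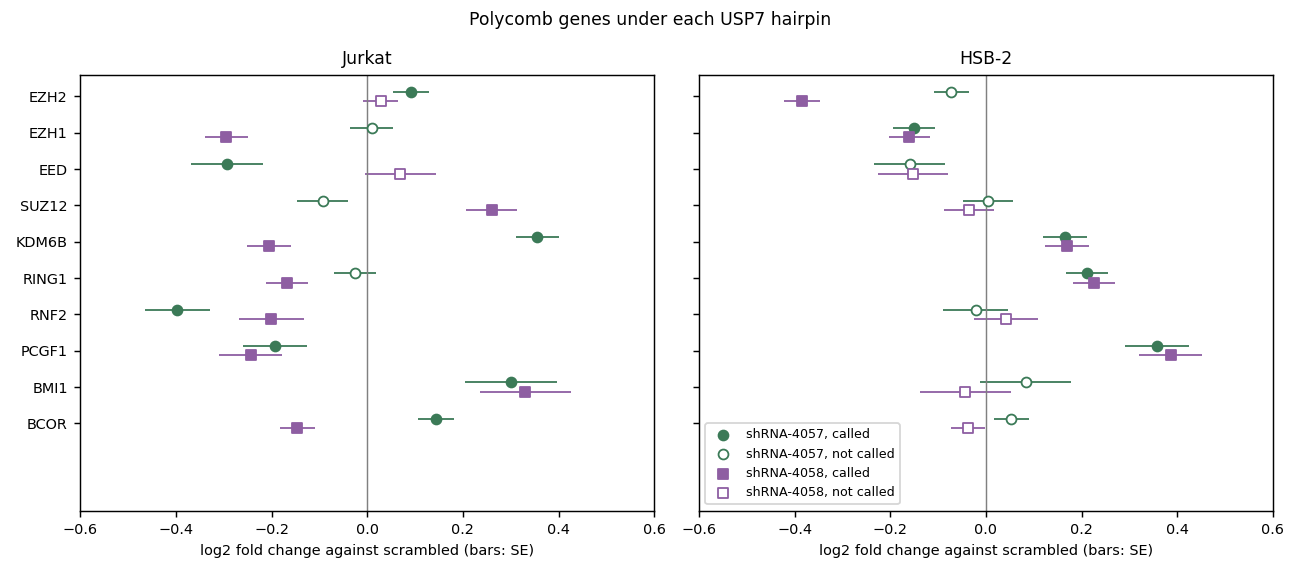
Log2 fold change of each Polycomb gene against scrambled cells under shRNA-4057 (circles) and shRNA-4058 (squares), with SE bars, from the fit of all 16 libraries; filled symbols passed an adjusted p of 0.05. In HSB-2 the hairpins stand close together except at EZH2 (-0.07 and -0.39), and in Jurkat KDM6B stands at 0.36 and -0.21.

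In HSB-2, the pooled comparison called 3 of 10 members, beside 38.1% of the 21113 genes tested. PCGF1, RING1 and KDM6B were higher (20.3% of genes) and none was lower (17.8%). With the hairpins taken singly, 4 of 10 members were called under shRNA-4057 (43.6% of genes, 21.9% higher and 21.7% lower). Under shRNA-4058, 5 of 10 were called (52.8%, 26.6% higher and 26.2% lower). Among genes with at least 10 counts in every library the shares were 58.1% under shRNA-4057 and 67.0% under shRNA-4058. PCGF1, RING1 and KDM6B were higher and EZH1 lower under both, and EZH2 was lower under shRNA-4058. The direct comparison of the hairpins called EZH2 alone of the members (24.8% of genes, 10.5% higher under shRNA-4057 and 14.3% lower).

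PCGF1 (chr2:74732170-74734822, minus strand, GRCh37) gave 10.5 and 10.1 CPM in scrambled, 13.4 and 13.0 in shRNA-4057 and 13.7 and 13.2 in shRNA-4058 HSB-2 cells. The pooled log2 fold change was 0.38 ± 0.071 (adjusted p = 0.0032 in edgeR's quasi-likelihood test), with 0.36 ± 0.067 and 0.39 ± 0.066 for the single hairpins. The call held without each of the 6 libraries in turn (0.36 to 0.41). Wild-type cells, at 12.4 and 12.6 CPM, lay between the scrambled and shRNA cells, and the 4 shRNA libraries were above all 4 controls. Against wild-type cells alone the difference was 0.09 ± 0.066 (adjusted p = 0.34) and against all 4 controls 0.23 ± 0.087 (adjusted p = 0.071).

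RING1 (chr6:33176277-33180499, plus strand, GRCh37) moved alongside, with 32.8 and 33.2 CPM in scrambled, 37.9 and 38.6 in shRNA-4057 and 38.8 and 38.5 in shRNA-4058 HSB-2 cells. The pooled log2 fold change was 0.22 ± 0.053 (adjusted p = 0.0098, edgeR's quasi-likelihood test). It was lost when either scrambled library was left out (adjusted p = 0.11 and 0.066). Wild-type cells gave 37.2 and 35.6 CPM, just under the shRNA libraries, and the difference from them was 0.08 ± 0.050 (adjusted p = 0.28). The scrambled HSB-2 cells were below wild-type cells in RING1 (-0.14 ± 0.044) and PCGF1 (-0.27 ± 0.066), 2 of the 3 members called lower (17.9% of genes). EZH2 was the other and KDM6B was called higher (16.1%), so that 4 of 10 were called, beside 34.1% of genes. The RING1 call between the controls was lost without wild-type replicate 1 or either scrambled library (adjusted p from 0.054 to 0.21).

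The 250 bases before the start sites of PCGF1 and RING1 are shown, from RefSeq on GRCh38.p14, 5′ to 3′ on the gene's strand. Both genes were called higher in pooled HSB-2 against scrambled cells and not against wild-type cells. PCGF1 is read from chr2:74507696-74507945 on the minus strand and RING1 from chr6:33208250-33208499 on the plus strand. Capitals mark E-boxes (CANNTG, read on both strands), the sites that E proteins and TAL1 are known to bind. An E2F-like motif (TTTNNCGC on either strand) was searched too and does not occur in either.
PCGF1: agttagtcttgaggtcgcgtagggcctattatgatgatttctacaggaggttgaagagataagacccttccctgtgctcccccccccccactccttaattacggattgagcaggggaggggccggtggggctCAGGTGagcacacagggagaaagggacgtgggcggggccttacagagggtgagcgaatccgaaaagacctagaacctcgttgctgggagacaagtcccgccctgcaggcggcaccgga
RING1: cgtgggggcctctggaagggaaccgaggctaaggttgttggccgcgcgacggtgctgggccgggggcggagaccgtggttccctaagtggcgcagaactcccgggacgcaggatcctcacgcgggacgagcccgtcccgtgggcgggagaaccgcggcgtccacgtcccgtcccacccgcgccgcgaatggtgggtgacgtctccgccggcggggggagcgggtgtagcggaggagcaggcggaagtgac
The PCGF1 sequence held 1 E-box and that of RING1 none, where 61.8% of 35116 promoter sequences of that length held at least 1. The 2 entries of KDM6B, also called higher in pooled HSB-2, held 1 and 2 E-boxes. Among the 14 promoter entries of the 10 members, 7 held an E-box and 2 the E2F-like motif (EZH1 and SUZ12), which 5.92% of all promoters held. The match is a description of letters and not evidence of binding. In GC content the PCGF1 sequence stood at 58.8% and that of RING1 at 72.8%, beside a median of 58.0%, with 12 and 34 CpG dinucleotides beside a median of 11.

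KDM6B gave 165 and 169 CPM in scrambled, 191 and 183 in shRNA-4057 and 183 and 192 in shRNA-4058 HSB-2 cells, beside 152 and 145 in wild-type cells. The 3 kinds of cells did not overlap. The pooled log2 fold change was 0.17 ± 0.053 (adjusted p = 0.032), and against wild-type cells it was 0.34 ± 0.051 (adjusted p = 0.0026, edgeR's quasi-likelihood test). Scrambled cells were already 0.17 ± 0.046 above wild-type cells. The pooled call was lost without scrambled replicate 1 (0.15, adjusted p = 0.23), scrambled replicate 2 (0.20, adjusted p = 0.11), shRNA-4057 replicate 1 (0.16, adjusted p = 0.067) or shRNA-4058 replicate 2 (0.16, adjusted p = 0.054). The call for shRNA-4057 alone was lost when its replicate 1 was left out (0.13, adjusted p = 0.075), and the excess of scrambled over wild-type cells without wild-type replicate 2 (0.15, adjusted p = 0.052).

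EZH2 stepped down across the HSB-2 groups, from 105 and 106 CPM in wild-type cells to 69.9 and 66.3 under shRNA-4058. Against scrambled cells the log2 fold change was -0.07 ± 0.037 under shRNA-4057 (adjusted p = 0.13) and -0.39 ± 0.037 under shRNA-4058 (adjusted p = 5.9e-09), and the hairpins differed by 0.31 ± 0.038. Scrambled cells were lower than wild-type by -0.24 ± 0.037 (adjusted p = 1.5e-05). Pooled, the value was -0.22 ± 0.10 (adjusted p = 0.13), and against wild-type cells -0.46 ± 0.10 (adjusted p = 0.014 in edgeR's quasi-likelihood test). The shRNA-4058 call held in all 10 other settings.

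EZH1 also lay lower, with 63.8 and 68.2 CPM in scrambled, 59.3 and 59.8 in shRNA-4057 and 61.0 and 57.3 in shRNA-4058 HSB-2 cells. The single-hairpin log2 fold changes were -0.15 ± 0.044 and -0.16 ± 0.044, the pooled value -0.15 ± 0.055 (adjusted p = 0.056) and the value against wild-type cells -0.21 ± 0.046 (adjusted p = 0.013, edgeR's quasi-likelihood test). Both hairpin calls were lost without scrambled replicate 2 (-0.10, adjusted p = 0.14, and -0.11, adjusted p = 0.094). That of shRNA-4058 was also lost without shRNA-4058 replicate 2 (-0.06, adjusted p = 0.39) and in DESeq2 (-0.10, adjusted p = 0.060). EED gave 25.6 and 25.1 CPM in scrambled, 21.3 and 24.1 in shRNA-4057 and 23.8 and 21.8 in shRNA-4058 cells, with all 4 shRNA libraries lower and a pooled value of -0.15 ± 0.068 that was not called (adjusted p = 0.11). Of the members, 3 lay wholly above and 3 wholly below the scrambled libraries, where 27.8% and 29.3% of all genes did. Against both controls 3 lay above and 2 below (EZH2 and EZH1), beside 16.5% of genes in each direction. SUZ12, RNF2, BMI1 and BCOR overlapped the scrambled libraries, with pooled values between -0.01 and 0.03.

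The 3 members called higher in HSB-2 had the highest GC content in their exons. KDM6B stood at 61.6%, RING1 at 61.2%, PCGF1 at 54.4% and BCOR next at 54%, and EED was the lowest at 36.4%, against a median of 48.4% over the genes tested. With an offset for GC content and length in each library, RING1 in HSB-2 stood at 0.08 ± 0.056 (adjusted p = 0.31) and KDM6B at 0.04 ± 0.047 (adjusted p = 0.55). PCGF1 kept its call at 0.29 ± 0.065 (adjusted p = 0.0089). SUZ12, RNF2 and EZH1 were then called, at 0.15 ± 0.039, 0.19 ± 0.058 and -0.17 ± 0.045 (edgeR's quasi-likelihood test). In Jurkat the same offset left PCGF1 at -0.01 ± 0.070 and brought BMI1 (0.37 ± 0.094, adjusted p = 0.024) and RNF2 (-0.26 ± 0.061, adjusted p = 0.019) past the threshold. Single-hairpin PCGF1 in Jurkat then lost both calls (-0.06, adjusted p = 0.47, and -0.05, adjusted p = 0.50), and RING1 under shRNA-4058 turned to 0.06. In HSB-2, RING1 and KDM6B lost their shRNA-4058 calls (0.07, adjusted p = 0.18, and 0.02, adjusted p = 0.55). Scaled to library totals, PCGF1 in HSB-2 kept its call, while RING1 and KDM6B stood at 0.08 (adjusted p = 0.27) and 0.03 (adjusted p = 0.68) and lost their single-hairpin calls too.

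**Figure D3:**
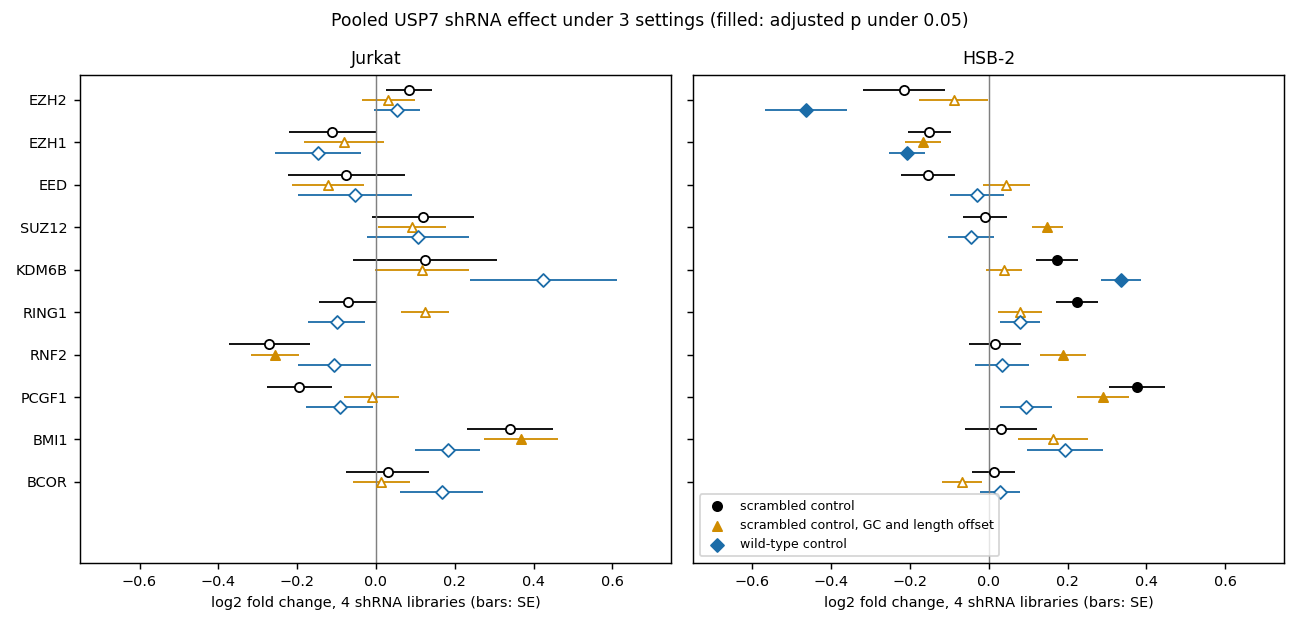
Pooled log2 fold change (4 shRNA libraries, SE bars) of each Polycomb gene against scrambled cells (circles), against scrambled cells with the GC and length offset (triangles) and against wild-type cells (diamonds); filled symbols passed an adjusted p of 0.05. In HSB-2, PCGF1 stays at 0.29 with the offset and drops to 0.09 against wild-type cells, while KDM6B drops to 0.04 with the offset and reaches 0.34 against wild-type cells.

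Whether the shRNA effect differed between the lines was tested as an interaction over the 12 shRNA and scrambled libraries. The interaction passed for 2 members, both higher in HSB-2, beside 37.7% of the 22732 genes tested (20.6% higher and 17.1% lower). PCGF1, at 0.38 in HSB-2 and -0.19 in Jurkat, had a difference (HSB-2 minus Jurkat) of 0.59 ± 0.11 in log2 fold change (adjusted p = 9.9e-04 in edgeR's quasi-likelihood test), and kept its call with the GC and length offset (0.38, adjusted p = 0.0071). On library totals, where all genes moved by -0.42, it stood at 0.17 (adjusted p = 0.21) and RING1 at -0.10. Scrambled cells were the Jurkat group with the highest PCGF1 mean (16.5 CPM, wild-type 15.4). In HSB-2 they were the lowest group (10.3 CPM, wild-type 12.5), and the interaction was not tested against wild-type cells. RING1 differed by 0.32 ± 0.092 (adjusted p = 0.015). That call was lost with the offset (0.03, adjusted p = 0.84), without Jurkat scrambled replicate 2 (0.29, adjusted p = 0.077) and without HSB-2 scrambled replicate 1 (0.31, adjusted p = 0.070). With hairpins matched, 6 of 10 members differed between the lines under shRNA-4057 (46.7% of genes, 24.9% higher and 21.8% lower in HSB-2) and 7 of 10 under shRNA-4058 (55.6%, 29.6% higher and 26% lower). Among them KDM6B differed by -0.19 under shRNA-4057 and by 0.38 under shRNA-4058. Of genes with at least 10 counts in every library, 62.4% differed under shRNA-4057 and 70.7% under shRNA-4058.

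Genes that can take the same place in a complex were set against each other as ratios of levels per kilobase of exons within each library. EZH1 stood at 0.555 ± 0.0034 (SD, n = 2) of EZH2 in wild-type Jurkat, 0.553 ± 0.019 in scrambled, 0.523 ± 0.031 in shRNA-4057 and 0.442 ± 0.0010 in shRNA-4058 cells. In HSB-2 it stood at 1.0 ± 0.030, 1.15 ± 0.077, 1.09 ± 0.013 and 1.34 ± 0.0095 in the same order. The lowest ratio of Jurkat and the highest of HSB-2 thus fell in cells with shRNA-4058. On canonical transcripts the ratios were lower (0.206 in wild-type Jurkat, 0.372 in wild-type HSB-2) with the same order of the lines. PCGF1 exceeded BMI1 at 1.42 ± 0.12 in scrambled HSB-2 and at 1.72 ± 0.068 and 1.90 ± 0.17 under the hairpins, and in Jurkat it went from 2.12 ± 0.33 in scrambled to 1.49 ± 0.0032 and 1.42 ± 0.26. The exon length of BMI1 includes stretches shared with COMMD3-BMI1, where the treatment of reads is not given, so the size of this ratio is uncertain. RING1 exceeded RNF2 in all groups, from 2.56 ± 0.074 in scrambled HSB-2 to 3.77 ± 0.11 in Jurkat with shRNA-4057.

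The wider Polycomb machinery was described with a list of 40 further genes, of which 38 had a row and PCGF2 and EPOP were not analysed here. In pooled Jurkat, 7 were called higher and 5 lower of 38 tested (12.4% and 15.7% of all genes), with a median log2 fold change of -0.04 beside 0.02 over all genes. CBX2 and CBX6, chromodomain readers of H3K27 methylation in canonical PRC1, rose by 0.53 ± 0.067 and 0.44 ± 0.067. JARID2, an accessory subunit that guides PRC2 to chromatin, rose by 0.41 ± 0.075, and LCOR, whose locus also encodes a PRC2 partner, by 0.42 ± 0.089. PHF1, a Polycomb-like accessory subunit, fell by 0.82 (SE 0.25), from a mean of 50.8 CPM in scrambled to 35.8 and 20.6 under the hairpins. BCORL1, the BCOR paralog, the histone chaperone RBBP7 and the PRC1 protein SCMH1 fell by 0.40, 0.33 and 0.26. Against wild-type cells the list held 4 calls in place of 12, where 8.41% of all genes were called in place of 28.0%. Of the genes named, CBX2 (0.56) and CBX6 (0.38) were called against wild-type cells. The list also held fewer calls without either scrambled library, which leaves a single control, where CBX2 stood at 0.53.

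In pooled HSB-2, 10 were called higher and 6 lower of 37 tested (20.3% and 17.8% of all genes), with a median of 0.10 beside -0.02. AUTS2, which turns a noncanonical PRC1 towards activation in neurons, was listed at a mean of 1.12 CPM in scrambled cells and 9.37 and 8.48 under the hairpins, a log2 fold change of 3.0 ± 0.13. Wild-type cells gave 5.45 CPM, and against them the difference was 0.71 ± 0.11 (adjusted p = 0.0028 in edgeR's quasi-likelihood test). PHF19, a Polycomb-like subunit of PRC2, rose by 0.60 ± 0.058, from 312 to 453 and 490 CPM, and FBRS, related to AUTS2, by 0.57 ± 0.054. ASXL2, a partner of the H2A deubiquitylase BAP1, fell by 0.72 (SE 0.046), and PHC3, FOXK1 and FBRSL1 fell by 0.24, 0.22 and 0.20. Against wild-type cells AUTS2, PHF19 (0.32) and ASXL2 (-0.18) kept their calls, while FBRS, PHC3, FOXK1 and FBRSL1 did not. Of all genes, 25.1% were called against wild-type cells in place of 38.1%. Without either scrambled library the list held 7 calls in place of 16, and PHC3, FOXK1 and FBRSL1 were not among them. SCML2, a PRC1-associated gene singled out after its values were seen, was present in Jurkat at means from 43.6 to 51.2 CPM and at 0 counts in 7 of the 8 HSB-2 libraries.

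**Figure D4:**
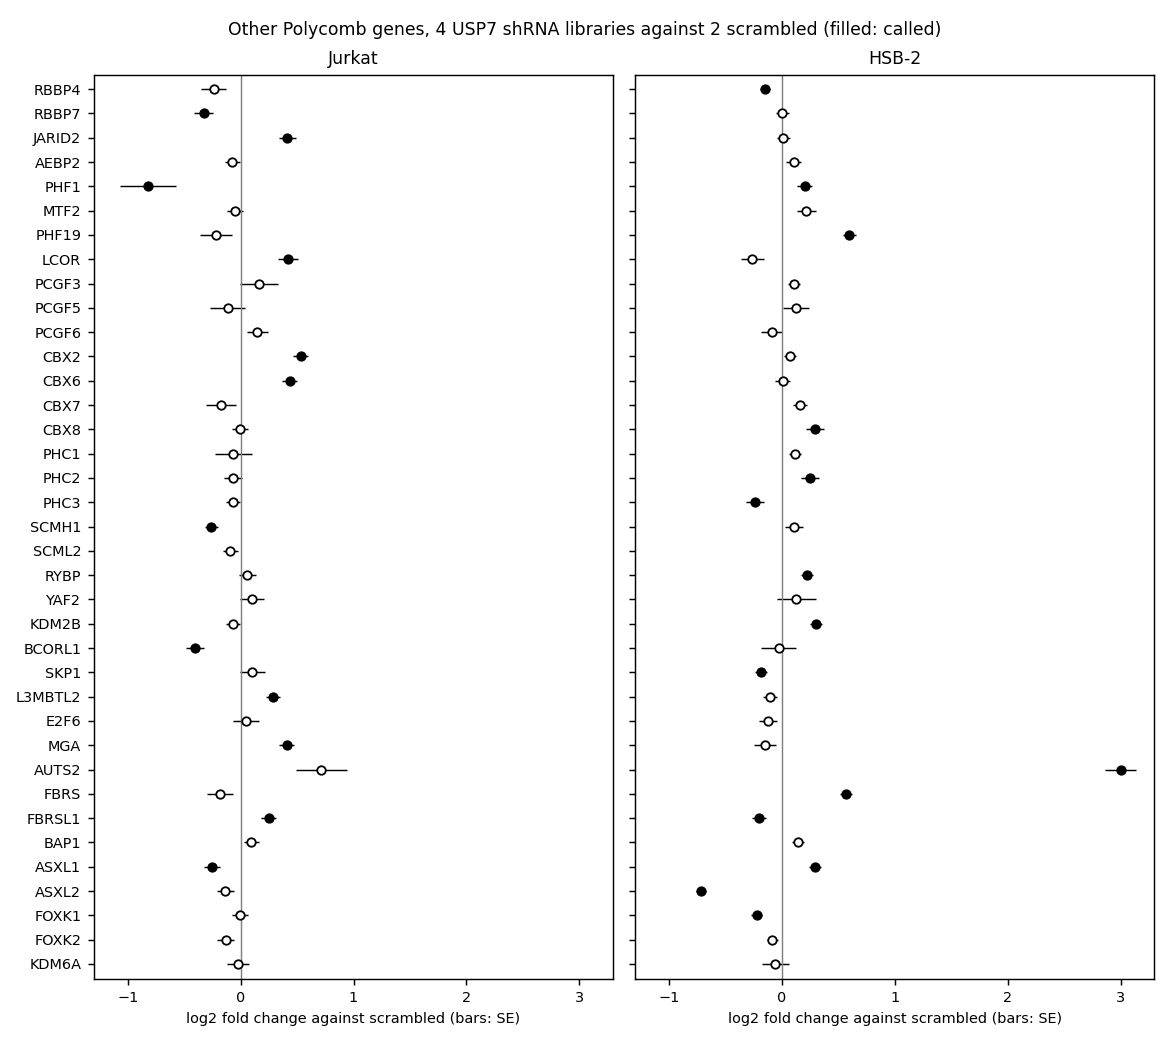
Pooled log2 fold change with SE bars of 37 of the 38 further Polycomb genes, 4 shRNA against 2 scrambled libraries, in Jurkat (left) and HSB-2 (right), where filled points passed an adjusted p of 0.05. AUTS2 in HSB-2 lies apart at 3.0, and PHF1 in Jurkat is the lowest at -0.82.

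HOX and CDKN2 genes are textbook loci under Polycomb silencing, and 41 of them had a row. In Jurkat 27 passed the filter on low counts and 4 were called higher and 4 lower, beside 28.0% of all genes (12.4% higher and 15.7% lower). HOXA2 rose by 1.04 ± 0.27 and HOXC9 by 0.98 ± 0.21, while HOXA13, HOXC11 and HOXD13 fell by 1.13, 0.86 and 0.72 (SE 0.12, 0.17 and 0.13). HOXC5 was also called higher, but on 1 and 3 counts in scrambled and 7 to 22 counts in shRNA libraries. Of these, HOXA13 kept its call without each library in turn and against wild-type cells. The list held 1 call without scrambled replicate 1 and 3 without scrambled replicate 2, and HOXC9, HOXC11, HOXA2 and HOXD13 were lost without the first (0.74, -0.64, 1.05 and -0.77). In HSB-2, 11 genes passed the filter, and 8 were called higher and 1 lower, beside 20.3% and 17.8% of all genes. A gene can pass the filter through the group in which it is high, so the share called says nothing of the list as a whole. HOXB9 gave 2.66 and 2.80 CPM in scrambled, 12.7 and 11.3 in shRNA-4057 and 15.7 and 13.9 in shRNA-4058 HSB-2 cells, a log2 fold change of 2.30 ± 0.14 (adjusted p = 6.1e-06, edgeR's quasi-likelihood test). Wild-type cells lay between at 6.11 and 5.54 CPM, and the difference from them was 1.20 ± 0.13 (adjusted p = 0.0007). HOXB6 and HOXC10 rose by 2.20 ± 0.27 and 1.91 ± 0.38, with 0.82 ± 0.22 (adjusted p = 0.026) and 1.06 ± 0.37 (adjusted p = 0.068) against wild-type cells. HOXB3, whose gene model overlaps HOXB4, HOXB5 and HOXB6, fell by 0.21 (SE 0.068), a call lost without either scrambled library (adjusted p = 0.21 and 0.14), and HOXC10 was not called without scrambled replicate 2 (1.76, adjusted p = 0.053). Without either of them 6 calls were made. CDKN2A, likewise chosen after its values were seen, was at 0 counts in all 16 libraries, each of which allows at most 0.0127 to 0.0392 CPM (the level of 3 counts). Counts cannot tell a silenced gene from a deleted one, and neither was tested.

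**Figure D5:**
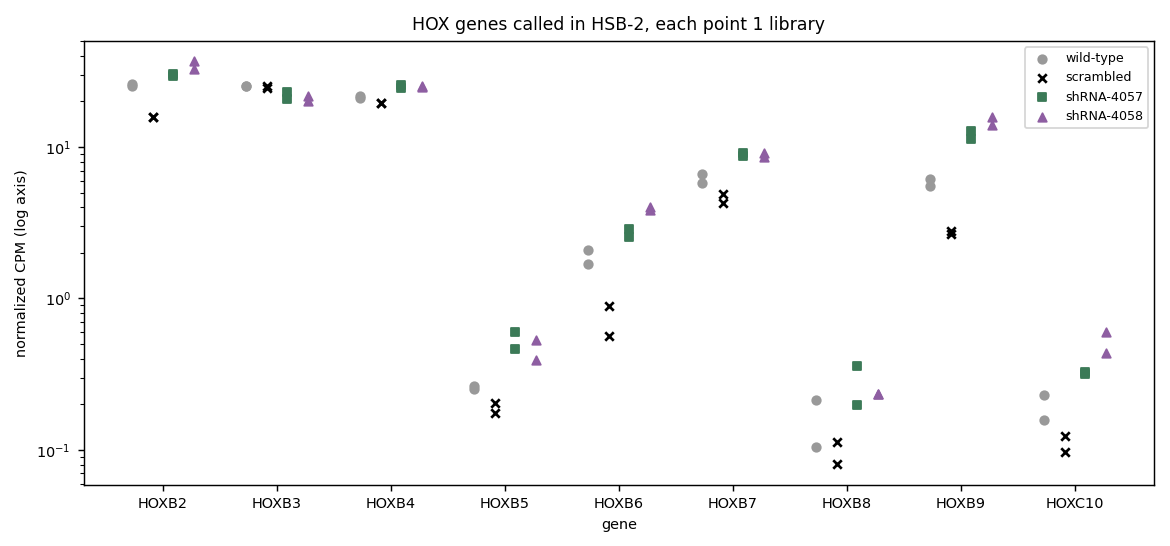
TMM-normalized CPM (log axis) of the 9 HOX genes called in HSB-2, with each point a library and the groups in different symbols. At HOXB9 the shRNA libraries (11.3 to 15.7 CPM) lie above wild-type (5.54 and 6.11) and scrambled (2.66 and 2.80) libraries, and HOXB3 runs the other way.

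Within the members, likeness of pattern was measured as Pearson's r of log2 CPM over the 16 libraries after removing the mean of each line. This is a description, since the points share controls, depth and base composition. BCOR and KDM6B (0.85), RING1 and PCGF1 (0.83), and EED and RNF2 (0.74) ran together, and SUZ12 and BCOR ran opposite (-0.75). The most alike gene among 14044 with a mean of at least 1 CPM was SUV39H1 for PCGF1 (0.96), SPAG5 for RING1 (0.96), LMO2 for KDM6B (0.93), NETO1 for BCOR (0.90) and NAA30 for BMI1 (0.90). ZBTB21 came nearest to EED (0.91), MTFR2 to SUZ12 (0.91) and VDAC2P5 to RNF2 (0.96), while EZH2 (0.98) and EZH1 (0.96) were nearest to genes given by identifier, ENSG00000267554 and ENSG00000215513.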

How the data were processed

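The authors sequenced ribosomal-RNA-depleted, strand-specific total RNA, aligned reads with BWA to GRCh37-lite and transcript databases, and deposited HT-seq read counts per Ensembl gene ID as 1 table of 16 libraries. The submitters' processing notes also name STAR, CASAVA and HTSeq 0.6.1p1; the annotation release and the strand setting are not given in the sources used here. The counts are raw, from 76.6 to 235 M per library, and the floor of 3 counts stands for 0.0127 to 0.0392 CPM. Spread beyond counting error, as edgeR estimated it in common over genes, was 4.20% in the fit of all libraries. It was 14.3% in pooled Jurkat and 10.7% in pooled HSB-2, where it includes the difference between hairpins. Symbols came from matching 55538 IDs to GENCODE 44 on GRCh37, and promoters from RefSeq (GRCh38.p14).

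Groups followed the labels. Genes passing filterByExpr were tested with edgeR 4.0.16 (R 4.3.3; TMM scaling, quasi-likelihood F-test, Benjamini-Hochberg over all genes tested, called under 0.05), and SE is the absolute log2 fold change divided by the square root of F. The pooled fits set 4 shRNA against 2 scrambled libraries within a line. A fit of all 16 libraries as 8 groups gave the single hairpins, the controls, the lines and the matched hairpins between lines, and 12 libraries the interaction. Alternatives were DESeq2 1.42.0, library totals, no filter, 10 counts in every library, a replicate block, a GC and length offset (loess, span 0.3, genes with a mean of at least 50 counts), wild-type controls and leaving out each library. The offset applied to 96.3% of genes.

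Outside the 10 members, up to 4 called genes in each direction of the Polycomb list and up to 3 of the HOX and CDKN2 list were named per pooled comparison, by size of change, and for each member the gene with the highest line-centred r. A gene that this rule names is not reported here. The members and lists were chosen with earlier results of these data known. Of the B-lineage markers listed, those over 1 CPM were CD79A and EBF1 in Jurkat and PAX5 in HSB-2.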

Additional observations from a re-analysis of the deposited data

Results flagged for a closer look

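These values are differences between the lines in the effect of the shRNA, given as log2 fold change in HSB-2 minus that in Jurkat, each tested as an interaction (edgeR's quasi-likelihood test, adjusted p under 0.05 over all genes). With both hairpins pooled, RING1 differed by 0.32, with 0.22 in HSB-2 and -0.07 in Jurkat, and PCGF1 by 0.59, with 0.38 and -0.19. Under shRNA-4057, EZH2 differed by -0.16, EZH1 by -0.16, RING1 by 0.24, RNF2 by 0.38, PCGF1 by 0.55 and KDM6B by -0.19. Under shRNA-4058, EZH2 differed by -0.41, SUZ12 by -0.29, RING1 by 0.39, RNF2 by 0.24, PCGF1 by 0.63, BMI1 by -0.37 and KDM6B by 0.38.

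PCGF1 was the member with the largest difference in all 3 of these comparisons. All 3 took scrambled cells as the control, whose PCGF1 mean was the highest of the Jurkat groups and the lowest of the HSB-2 groups. USP7 itself differed by 0.82 under shRNA-4057 and by 0.17 under shRNA-4058, and its part in these differences was not tested. Leaving out single libraries ended several of the calls. Under shRNA-4057 these were EZH2 (-0.13 without Jurkat shRNA-4057 replicate 2 and -0.14 without HSB-2 scrambled replicate 1), EZH1 (-0.11 to -0.16 without 1 of 5 libraries) and KDM6B (-0.15 to -0.17 without 1 of 4 libraries). Under shRNA-4058 they were RNF2 (0.13 without Jurkat scrambled replicate 1) and BMI1 (-0.20 without Jurkat scrambled replicate 2), each also lost without 3 other libraries. With the GC and length offset, EZH2 (-0.04) and RING1 (0.05) under shRNA-4057 and SUZ12 (-0.04), RING1, BMI1 (-0.19) and KDM6B (0.08) under shRNA-4058 were not called.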

How the results depend on the processing

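Over 1730 values of the 10 genes under alternatives, 1509 kept direction and side of the threshold, 109 lost a call, 87 gained one and 25 turned sign with a call in one of the fits; 122 of 2176 values changed sign with no call in either. The cause of these changes was not tested. The calls between the lines' controls held throughout. Where 1 library of an arm remained, it was assumed to vary like the others.

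The share of all genes called in pooled Jurkat was 32.6% with DESeq2, 15.5% with no filter and 26.7% with both controls. It was 31.3% with 10 counts in every library, 8.41% against wild-type cells, 37.7% with library totals and 29.2% with the offset. In pooled HSB-2 it was 25.1% against wild-type cells and 30.6% against both controls. The share without single libraries was not recorded. Of the members, pooled Jurkat had 0 called. The count was 1 with DESeq2, with no filter, with 10 counts in every library and with both controls, 2 with library totals and with the offset, 5 with hairpins as separate groups (a fit that called 51.3% of all genes), and 0 to 1 without single libraries. Of the further Polycomb genes, 12 became 4 against wild-type cells, 25 with hairpins separate and 2 to 12 without single libraries. Of the HOX and CDKN2 genes, 8 became 3 against wild-type cells and 1 to 6 without single libraries. In pooled HSB-2, 3 members became 6 with hairpins separate (52.4% of all genes) and 1 to 3 without single libraries. The 16 further genes became 8 against wild-type cells, 9 against both controls, 28 with hairpins separate and 7 to 16 without single libraries, and the 9 HOX genes 14 with hairpins separate and 6 to 10 without single libraries.

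Among single comparisons, members called without single libraries were 3 to 5 (of 7) for Jurkat shRNA-4057, 4 to 7 (of 8) for shRNA-4058, 1 to 3 (of 2) for Jurkat scrambled against wild-type and 1 to 3 (of 2) for the interaction. With the offset, HSB-2 shRNA-4057 gave 7 in place of 4 (46.2% of all genes) and the HSB-2 hairpins 3 in place of 1 (29.3%). Jurkat scrambled against wild-type then gave 4 (29.5%) and the shRNA-4058 difference between lines 3 in place of 7 (55.6%). With library totals, the HSB-2 hairpins gave 2 (24.2% of all genes), Jurkat scrambled against wild-type 6 (33.3%) and the interaction 6 (46.4%). The HSB-2 hairpins gave 2 with 10 counts in every library (35.6% of all genes) and the interaction 1 with no filter (21.2%). The shRNA-4057 difference gave 3 in place of 6 with DESeq2 (45.7%).

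Signs turned with the offset for SUZ12 in pooled HSB-2 (0.15) and under HSB-2 shRNA-4058 (0.16), RING1 under Jurkat shRNA-4058 (0.064), RNF2 under HSB-2 shRNA-4057 (0.15) and KDM6B between the HSB-2 hairpins (0.083). Signs turned with library totals in Jurkat for SUZ12 (0.18), RING1 (0.25) and PCGF1 (0.079) under shRNA-4057, for RING1 (0.12), RNF2 (0.083), PCGF1 (0.040), BCOR (0.14) and KDM6B (0.078) under shRNA-4058, and for BCOR between scrambled and wild-type (-0.028). In the differences between lines they turned under shRNA-4057 for SUZ12 (-0.29), RING1 (-0.15) and RNF2 (-0.013), under shRNA-4058 for EZH1 (-0.31), RING1 (-0.051), RNF2 (-0.20), BCOR (-0.34) and KDM6B (-0.070), and pooled for RING1 (-0.10) and BCOR (-0.41).

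Over all genes, calls higher and lower were 2633 and 3332 in Jurkat and 4282 and 3767 in HSB-2, and 6523 and 1508, and 2908 and 6049, with library totals. With the offset they were 3101 and 3123, and 4495 and 3523. Against wild-type cells 1798 genes were called in Jurkat in place of 5965 and 5010 in HSB-2 in place of 8049.

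No pairing of the samples by replicate number was seen in the measure that follows. Genes with few counts entered it with the same weight as others, so it cannot exclude a pairing. Deviations of replicate 1 from its group mean, in log CPM, correlated between groups at -0.05 to 0.05 over 28 pairs of groups. With a replicate block, pooled Jurkat gave 1 member, 2 with the offset added, and 4 HOX and CDKN2 genes, and pooled HSB-2 gave 10 further Polycomb genes. The shares of all genes called with the block were 19.5% in Jurkat, 20.8% there with the offset added, and 31.7% in HSB-2. With block and offset SUZ12 in pooled HSB-2 stood at 0.15. The block ended the pooled KDM6B call in HSB-2 (0.17, adjusted p = 0.066).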
